A study of Mus musculus with 14 samples.

Results

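The genes described here are 42 mouse genes of DNA repair and the DNA damage checkpoint, taken by name from a list of well-known members of 9 pathways, out of 21883 protein-coding genes in the RefSeq table for GRCm38.p6 (mm10). They were examined by chromatin immunoprecipitation sequencing (ChIP-seq) in E14 mouse embryonic stem cells grown in 2i medium with LIF, which holds stem cells in an undifferentiated state. Doxorubicin-treated cells received 1 µM of the drug for 6 h, vehicle cells received DMSO for 6 h, and both were then kept for 6 h in medium without drug and harvested 12 h after the start. H3K27ac, an acetylation of histone H3 found at active promoters and enhancers, and H3K9me3, a methylation of heterochromatin, were each profiled after doxorubicin and after vehicle. An antibody to the HA tag was used on cells with HA-tagged p53 and on cells without the tag, and input chromatin came from doxorubicin-treated cells. No treatment is given in the titles of the HA libraries, and both p53 titles carry the same replicate number. Nothing in the labels says whether the 2 libraries of a group came from separate cultures.

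Cells sense a double-strand break through a complex of Mre11a, Rad50 and Nbn, which activates the kinase Atm, while single-stranded DNA activates the kinase Atr. Both kinases act through Chek2 and Chek1 to halt the cell cycle and to stabilise p53, a transcription factor that binds and activates its target genes. The break itself is mended by homologous recombination, which copies the sister chromatid, or by end joining, which ligates the ends directly. Doxorubicin traps topoisomerase II on the DNA it has cut, so the genes for that enzyme, Top2a and Top2b, were read together with those for the repair machinery.

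The 14 libraries fell into 7 groups of 2, and the 2 libraries of a group were pooled into 1 peak list. No comparison below therefore has a replicate check, no p-value can be given, and the 95% intervals on ratios are exact binomial intervals that cover counting error only. After removal of duplicates, 17036528 fragments were kept for doxorubicin H3K27ac and 20647895 for vehicle H3K27ac, and the lists held 112259 regions for doxorubicin and 82177 for vehicle. The other lists rested on 14402634 to 49588950 fragments. Embryonic stem cell markers carried H3K27ac in both treatments: 8 of 8 had a region within 1000 bp of an end, with a summit pileup of 2.00 to 11.7 fragments per 1000000 fragments kept (FPM) after doxorubicin and 0.872 to 10.8 after vehicle. Of 6 fibroblast markers, 4 had a region after doxorubicin, at 0.587 to 0.822 FPM, and 2 after vehicle, at 0.533 to 0.969.

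Promoter sequences are shown for the genes with the lowest and the highest ratio of H3K27ac between treatments, Top2a and Xrcc3, for the end-joining gene Xrcc4, which had the next lowest ratio, and for Top2b, the paralogue of Top2a with a ratio above 1. Each is the RefSeq window of GRCm38.p6 from 250 bases before to 50 after the annotated start, written 5′ to 3′ on the strand of the gene. Capitals mark the CCAAT box (CCAAT), the cell cycle homology region (TTTGAA), the GC box (GGGCGG), an E2F-type motif (TTTCGCG or TTTGGCG or TTTCCCG or TTTGCCG) and an ETS-type motif (CCGGAAG), each searched on both strands, and matches that touch or overlap run together.
Top2a, chr11:99024140-99024439, minus strand: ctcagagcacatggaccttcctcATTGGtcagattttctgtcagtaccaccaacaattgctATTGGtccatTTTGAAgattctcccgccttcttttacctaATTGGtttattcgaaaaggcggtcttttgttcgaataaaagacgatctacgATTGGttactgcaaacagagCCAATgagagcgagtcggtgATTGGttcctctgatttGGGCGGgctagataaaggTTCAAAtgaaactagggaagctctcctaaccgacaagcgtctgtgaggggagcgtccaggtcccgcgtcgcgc
Top2b, chr14:16364956-16365255, plus strand: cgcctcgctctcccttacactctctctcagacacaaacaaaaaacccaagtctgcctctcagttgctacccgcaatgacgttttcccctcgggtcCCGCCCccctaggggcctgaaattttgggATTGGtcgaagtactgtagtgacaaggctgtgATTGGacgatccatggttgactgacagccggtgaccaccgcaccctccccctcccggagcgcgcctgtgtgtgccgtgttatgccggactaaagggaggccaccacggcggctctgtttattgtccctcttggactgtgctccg
Xrcc3, chr12:111813830-111814129, minus strand: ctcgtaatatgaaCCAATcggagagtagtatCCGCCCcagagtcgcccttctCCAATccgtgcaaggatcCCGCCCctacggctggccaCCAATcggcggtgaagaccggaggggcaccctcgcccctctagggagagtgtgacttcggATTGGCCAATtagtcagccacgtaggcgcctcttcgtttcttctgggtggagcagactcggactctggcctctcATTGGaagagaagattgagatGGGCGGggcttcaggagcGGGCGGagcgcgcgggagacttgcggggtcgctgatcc
Xrcc4, chr13:90089559-90089858, minus strand: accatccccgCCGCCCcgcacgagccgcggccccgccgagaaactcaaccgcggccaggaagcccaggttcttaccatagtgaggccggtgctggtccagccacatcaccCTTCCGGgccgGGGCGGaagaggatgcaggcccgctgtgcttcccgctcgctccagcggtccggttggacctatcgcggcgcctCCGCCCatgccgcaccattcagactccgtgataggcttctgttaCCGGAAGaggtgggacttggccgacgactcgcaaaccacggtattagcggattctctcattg
The Top2a window held 6 CCAAT boxes, 2 cell cycle homology regions and 1 GC box, and the Xrcc3 window 6 CCAAT boxes and 4 GC boxes. The Top2b window held 2 CCAAT boxes and 1 GC box, and the Xrcc4 window 3 GC boxes and 2 ETS-type motifs. RefSeq windows were matched for 36 of the 42 genes, and Rad50, Nbn, Xrcc2, Exo1, Prkdc and Fancd2 had none. Among the 36, a CCAAT box was present in 21, against 37.4% of all 32851 windows, a GC box in 29, against 35.7%, an E2F-type motif in 11, against 6.70%, an ETS-type motif in 10, against 8.86%, and the cell cycle homology region in 2, against 17.9%. A gene counted if any of its windows matched, and some of the 36 had more than 1, while the percentages are shares of single windows. The windows of the 36 genes had a median GC content of 58.7%, against 52.7% for all windows. A match describes letters and not a bound site, and no p53 region overlapped any of the 40 windows of these genes.

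H3K27ac was present at nearly all of the repair genes in both treatments. A region lay within 1000 bp of an annotated gene end at 39 of 42 genes after doxorubicin, where 56.8% of all protein-coding genes had one, and at the same number after vehicle, where the share of all genes was 52.3%. At 22 of the 39 genes an end of another gene lay within 1000 bp of the same region, called a shared region below. The mark cannot be assigned to either gene there, and the neighbour is not named below for each of them. The genes without a region in either list were Xrcc6, Ercc2 and Xpa. Xrcc6 encodes Ku70, which with Ku80 from Xrcc5 holds broken ends for joining. Its RefSeq span includes distant transcript ends, and at its annotated start it did carry the mark, with a pileup of 27 fragments after doxorubicin and 45 after vehicle. Ercc2, a helicase of the TFIIH complex, and Xpa, a damage verification factor, both of nucleotide excision repair, had no region within 1000 bp of the annotated start either. Around annotated starts, a window chosen after the data were seen, 34 of 36 genes had a region after doxorubicin, against 53.5% of all genes with such a start, and 34 after vehicle, against 50.7%.

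The level of the mark was compared as the fragment pileup at the highest summit in FPM, doxorubicin over vehicle. A gene is called higher or lower past 1.5-fold, a rule of size and not a test. Over the 39 genes the median log2 ratio was -0.16, against 0.01 over all 10548 genes with the mark in both lists, and the ratio was below 1 at 26, against 48.5% of all genes. It was at least 1.5-fold higher at 6 repair genes, against 19.1% of all genes, and at least 1.5-fold lower at 5, against 12.3%, so the share of large changes was near that of genes at large. The counting interval lay above 1 at 4 genes, against 11.8% of all genes, and below 1 at 4, against 8.5%. The authors' fold enrichment in place of the pileup lowered the median of all genes by 0.18 on the log2 scale, and on it 4 repair genes were higher and 7 lower, against 12.1% and 20.3% of all genes. At annotated starts the median was -0.24, against 0.00 for all genes, with 5 of 34 genes higher (16.1% of all genes) and 4 lower (12.6%), and with counting intervals above 1 at 3 (9.2%) and below 1 at 3 (8.71%). Past 2-fold, 2 of the 39 genes were higher at their ends, against 6.86% of all genes, and 1 was lower, against 3.01%.

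**Figure D1:**
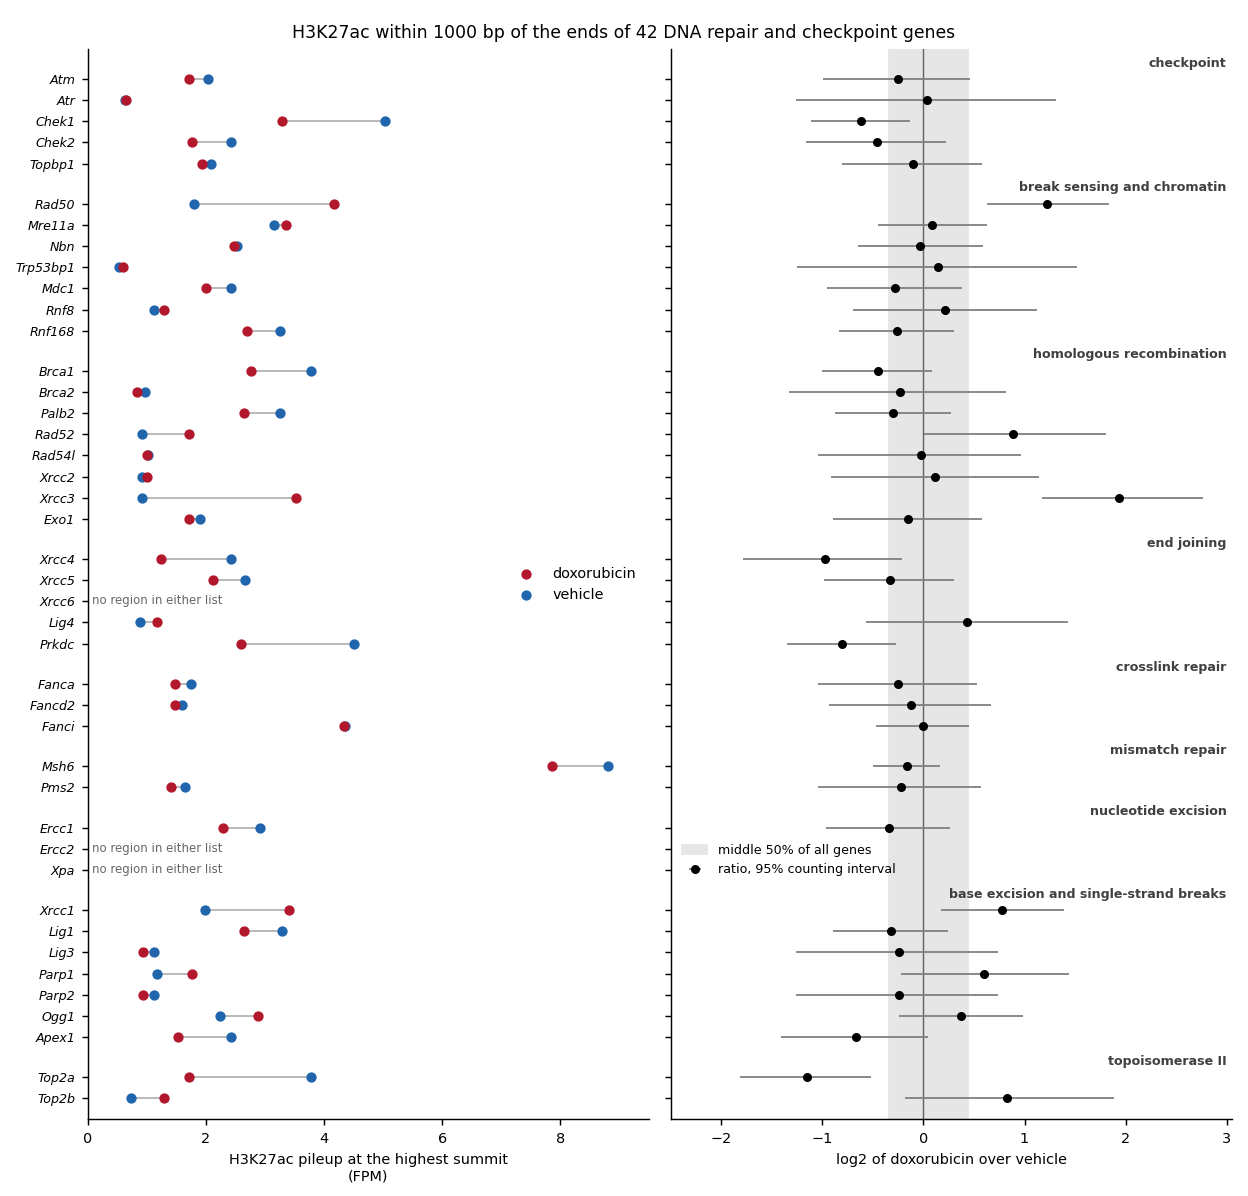
Left, H3K27ac pileup at the highest summit within 1000 bp of a gene end (FPM) for each gene after doxorubicin (red) and vehicle (blue), grouped by pathway. Right, log2 of doxorubicin over vehicle with 95% counting intervals, beside the middle 50% of all genes (grey). Xrcc3 and Rad50 stand farthest to the right, at 1.94 and 1.22, and Top2a farthest to the left, at -1.15.

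**Figure D2:**
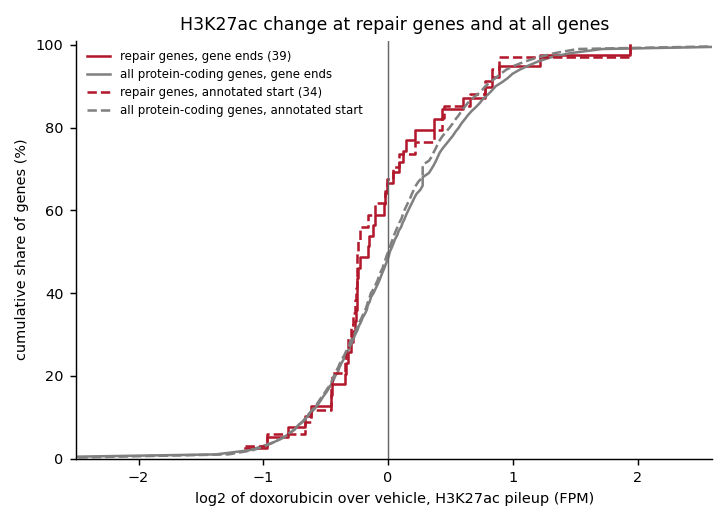
Cumulative share of genes (%) against the log2 ratio of H3K27ac pileup, doxorubicin over vehicle, for the repair genes (red) and all protein-coding genes (grey), at gene ends (solid) and annotated starts (dashed). The red curves run left of the grey ones in the middle, with medians of -0.16 and -0.24 against 0.01 and 0.00, and meet them at both tails.

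The 5 checkpoint genes kept the mark in both treatments, and the effector kinase gene Chek1 was the only 1 of them past the 1.5-fold rule at the highest summit. Chek1 (chromosome 9, 36708482 to 36726658) had 3.29 FPM at its summit after doxorubicin, from a pileup of 56 fragments, and 5.04 FPM after vehicle, from 104 fragments, a ratio of 0.653 (0.463 to 0.912). The summits of the 2 lists lay 15 bp apart, the doxorubicin one 206 and the vehicle one 191 bp from the annotated start. With all summits of the region summed the log2 ratio was -0.43 in place of -0.62, which is inside the rule. Chek2, the effector of Atm, had 1.76 FPM after doxorubicin and 2.42 after vehicle, a log2 ratio of -0.46, in a region shared with Hscb, and on the authors' fold enrichment it passed the rule at -0.63, while with summed summits it was at 0.004. Atm itself had 1.70 FPM after doxorubicin and 2.03 after vehicle (log2 -0.26), in a region shared with Npat, and the scaffold gene Topbp1, whose product activates Atr, had 1.94 FPM after doxorubicin and 2.08 after vehicle (log2 -0.10). Atr was among the lowest of all repair genes, with a pileup of 11 fragments after doxorubicin, 0.646 FPM, and 13 after vehicle, 0.630 FPM (log2 0.04).

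Among the genes that sense breaks and mark the chromatin around them, Rad50 had more H3K27ac after doxorubicin and no other gene passed the rule. Rad50, the ATPase that bridges DNA ends (chromosome 11, 53649519 to 53707319), had 4.17 FPM after doxorubicin, from a pileup of 71 fragments, and 1.79 FPM after vehicle, from 37 fragments, a ratio of 2.33 (1.54 to 3.56). The summits lay 14 bp apart. Summed over summits at the gene ends, in 2 regions after doxorubicin and 1 after vehicle, the log2 ratio was 0.59 in place of 1.22. The nuclease gene Mre11a had 3.35 FPM after doxorubicin and 3.15 after vehicle (log2 0.09), in a region shared with Ankrd49, and Nbn, which recruits Atm, had 2.47 FPM after doxorubicin and 2.52 after vehicle (log2 -0.03). The adaptor gene Mdc1 and the ubiquitin ligase genes Rnf8 and Rnf168, which act in turn on chromatin beside a break, had log2 ratios of -0.28, 0.21 and -0.27. With all summits summed, Mdc1 was at -1.46, Rnf8 at 1.22 and Rnf168 at -0.70, each past the rule. Trp53bp1, which reads those chromatin marks and favours end joining, had the lowest pileups of all, 10 fragments after doxorubicin and 11 after vehicle, and its gene ends lay far from its annotated start, where the pileups were 13 after doxorubicin and 10 after vehicle, a ratio of 1.58 (0.638 to 4.01). With summed summits at the ends it was at -0.86 on the log2 scale.

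Homologous recombination held the gene with the highest ratio. Xrcc3, which acts in strand exchange (chromosome 12, 111803192 to 111813893), had 3.52 FPM after doxorubicin, from a pileup of 60 fragments, and 0.920 FPM after vehicle, from 19 fragments, a ratio of 3.83 (2.25 to 6.79). Both summits lay upstream of the start, the doxorubicin one at 554 and the vehicle one at 527 bp. The regions with these summits, shared with Zfyve21, did not reach the promoter window printed above. Another doxorubicin region did overlap that window, and no vehicle region did. Summed over all summits within the window around the ends the log2 ratio was 1.24 in place of 1.94. Rad52, a strand annealing factor, had a pileup of 29 fragments after doxorubicin, 1.70 FPM, and 19 after vehicle, 0.920 FPM, a ratio of 1.85 whose interval of 1.00 to 3.49 began at equality to the digits given. The other 6 genes did not pass the rule. The breast cancer genes Brca1, Brca2 and Palb2 had log2 ratios of -0.45, -0.24 and -0.30, each with a lower value after doxorubicin. The intervals of their ratios all included 1, at 0.497 to 1.06, 0.396 to 1.77 and 0.545 to 1.21. The Brca1 region was shared with Nbr1 and that of Palb2 with Dctn5. Brca1 passed the rule with summed summits, at -0.94, and on fold enrichment, at -0.63. The nuclease gene Exo1 was at -0.15, the remodeller gene Rad54l at -0.03 and Xrcc2 at 0.12.

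In end joining, the genes of its kinase and of its ligase cofactor had less of the mark after doxorubicin. Xrcc4, the partner of DNA ligase IV (chromosome 13, 89848914 to 90089608), had 1.23 FPM after doxorubicin, from a pileup of 21 fragments, and 2.42 FPM after vehicle, from 50 fragments, a ratio of 0.509 (0.290 to 0.863). Prkdc, the catalytic subunit of DNA-PK, had 2.58 FPM after doxorubicin, from a pileup of 44 fragments, and 4.50 FPM after vehicle, from 93 fragments, a ratio of 0.573 (0.391 to 0.829). Both lay in regions shared with a neighbour, Tmem167 beside Xrcc4 and the replication helicase gene Mcm4 beside Prkdc, and the 2 Prkdc summits were 575 bp apart. Xrcc5, for Ku80, had 2.11 FPM after doxorubicin and 2.66 after vehicle (log2 -0.33), and Lig4, the ligase itself, had 1.17 FPM after doxorubicin and 0.872 after vehicle (log2 0.43, or 1.15 with summed summits). The Lig4 region was shared with Abhd13. At annotated starts Xrcc6 had a log2 ratio of -0.46, in a region shared with Desi1.

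The 2 topoisomerase II genes had ratios on opposite sides of 1. Top2a, the isoform of dividing cells (chromosome 11, 98992947 to 99024199), had 1.70 FPM after doxorubicin, from a pileup of 29 fragments, and 3.78 FPM after vehicle, from 78 fragments, a ratio of 0.451 (0.284 to 0.698). The summits were 45 bp apart, the doxorubicin one 217 and the vehicle one 172 bp from the start whose window is printed above. This was the lowest ratio of the 39 genes. Summed over summits at the gene ends, in 3 regions after doxorubicin and 2 after vehicle, the log2 ratio was -0.33 in place of -1.15. Around the annotated start each list had 1 region, whose summits summed to 29 fragments after doxorubicin and 97 after vehicle. Top2b, the isoform found also in resting cells (chromosome 14, 16365206 to 16430787), had 1.29 FPM after doxorubicin, from a pileup of 22 fragments, and 0.726 FPM after vehicle, from 15 fragments, a ratio of 1.78 (0.881 to 3.68). Summed summits gave 1.50 in place of 0.83 on the log2 scale. Its region spanned 1037 bp after doxorubicin and 319 bp after vehicle. The interval of Top2b includes 1 and that of Top2a does not, and the intervals of the 2 ratios do not overlap.

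In base excision and single-strand break repair 2 genes were higher and 1 lower. Xrcc1, the scaffold of single-strand break repair (chromosome 7, 24546699 to 24573438), had 3.40 FPM after doxorubicin, from a pileup of 58 fragments, and 1.99 FPM after vehicle, from 41 fragments, a ratio of 1.71 (1.13 to 2.62). Its doxorubicin summit lay 1284 and its vehicle summit 1444 bp from the annotated start in a region shared with Pinlyp, and the sum over all summits gave a log2 ratio of -0.07 in place of 0.78. Fold enrichment, at 0.57, and summits inside the window, at 0.51, also put Xrcc1 inside the rule. Parp1, which senses single-strand breaks, had 1.76 FPM after doxorubicin and 1.16 after vehicle, but the 2 summits lay at opposite ends of the gene, 31165 bp apart. At the annotated start of Parp1 the pileups were 27 after doxorubicin and 24 after vehicle, a ratio of 1.36 (0.757 to 2.47), and at the ends Parp1 was inside the rule on fold enrichment, at 0.39 on the log2 scale, and past it with summed summits, at 1.41. Apex1, the endonuclease that cuts at abasic sites, had 1.53 FPM after doxorubicin and 2.42 after vehicle (log2 -0.67), a ratio of 0.630 (0.377 to 1.03), in a region shared with Osgep, and summed summits gave -0.58, just inside the rule. The glycosylase gene Ogg1 was at 0.37, Parp2 at -0.25, and the ligase genes Lig1 and Lig3 at -0.32 and -0.25.

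The remaining genes lay close to equality at the highest summit. In crosslink repair, Fanca, Fancd2 and Fanci, members of the Fanconi anaemia pathway, had log2 ratios of -0.25, -0.12 and -0.01, although with summed summits Fancd2 was past the rule at -0.86. In mismatch repair, Msh6, which recognises mispaired bases, had the highest pileups of all 39 genes, 134 fragments after doxorubicin, 7.87 FPM, and 182 after vehicle, 8.81 FPM, a ratio of 0.892 (0.709 to 1.12). Its partner in the pathway Pms2 was at -0.23. In nucleotide excision repair, Ercc1, a subunit of the nuclease that cuts beside a lesion, had 2.29 FPM after doxorubicin and 2.91 after vehicle (log2 -0.34), although with summits inside the window only it was at 0.60.

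The width of the marked stretch at gene ends was close to equal over the set. The summed length of the regions touching the windows had a median log2 ratio of -0.06 over the 39 genes, against 0.03 over all genes. It was at least 1.5-fold wider at 10 genes, against 25.2% of all genes, and at least 1.5-fold narrower at 6, against 18.2%. Top2b had the highest length ratio, with the lengths given above (log2 1.70). Next came Parp1 with 9078 bp after doxorubicin and 2956 bp after vehicle, Lig4 with 1044 bp after doxorubicin and 534 bp after vehicle, Exo1 with 1597 bp after doxorubicin and 822 bp after vehicle, and Rad52 with 934 bp after doxorubicin and 503 bp after vehicle. Trp53bp1 had the lowest, with 342 bp after doxorubicin against 2613 bp after vehicle, followed by Mdc1 with 2719 bp after doxorubicin and 6728 bp after vehicle and Fancd2 with 713 bp after doxorubicin and 1451 bp after vehicle. Fanca had 1009 bp after doxorubicin and 1613 bp after vehicle, and Rnf168 had 3317 bp after doxorubicin and 5098 bp after vehicle. These lengths sum all regions touching the windows. The Exo1 region with the highest summit spanned 698 bp after doxorubicin and 822 bp after vehicle. At annotated starts Parp1, Lig4, Rad52, Trp53bp1 and Rnf168 were inside the 1.5-fold rule for length, while Top2b, Mdc1 and Fanca were past it. Over the 34 genes with a region at annotated starts the median log2 length ratio was -0.23, against -0.05 for all genes. There 4 of 34 genes were wider (16.1% of all genes) and 5 narrower (19.5%).

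Away from their ends, the bodies of the repair genes held more H3K27ac regions after doxorubicin. Counting regions inside the gene and more than 1000 bp from either end, there were 152 after doxorubicin and 75 after vehicle, 2.03 times as many, against 1.54 times over all protein-coding genes. They covered 127 kb after doxorubicin and 60.3 kb after vehicle. Of the 38 genes with any such region, 30 had more after doxorubicin, against 65.7% of all genes with any, and 4 had fewer, against 17.4%. The median span of the 42 genes was 31.7 kb, against 17.2 kb for all protein-coding genes, and the part of gene length in these shares was not tested. Xrcc5 had 13 after doxorubicin and 6 after vehicle, and Xrcc6 had 9 after doxorubicin and 3 after vehicle. Trp53bp1, Parp1 and Prkdc each had 8 after doxorubicin and 4 after vehicle. The ends here are those of the RefSeq span, so regions at a start deep inside the span are counted too. At Xrcc6 these were 2 after doxorubicin and 1 after vehicle, and at Trp53bp1 1 in each list. Rad50 and Top2b had 4 and 3 after doxorubicin and none after vehicle. The genes with fewer were Atr, Xrcc4, Lig4 and Msh6, the last with 4 after doxorubicin and 6 after vehicle. The doxorubicin list was the longer from fewer fragments, with a lowest pileup of 8 fragments in it and 9 in the vehicle list, and the part of this in the counts was not tested.

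**Figure D3:**
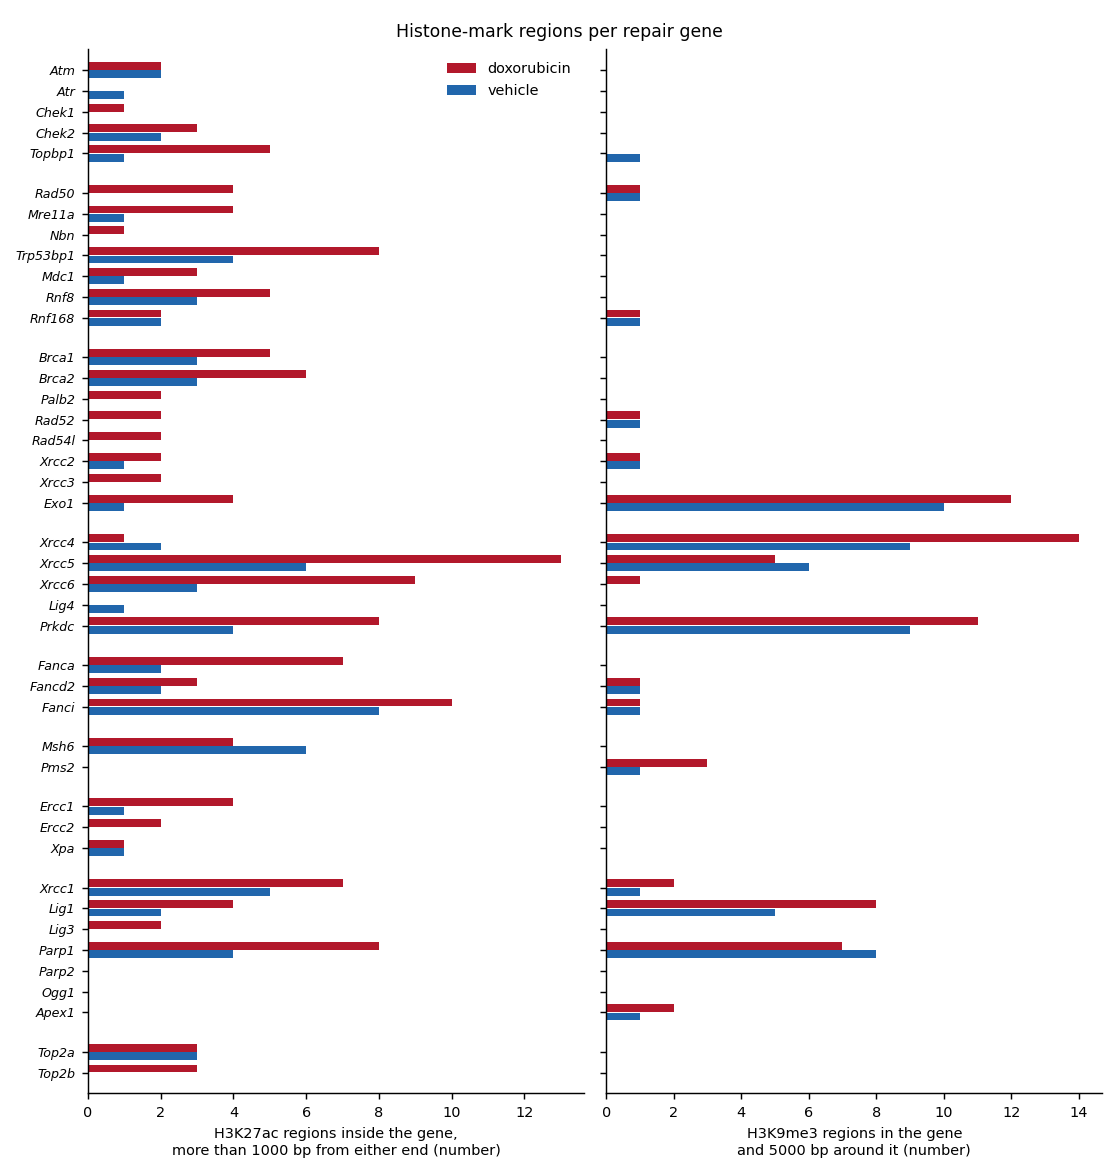
Number of H3K27ac regions inside each gene more than 1000 bp from its ends (left) and of H3K9me3 regions in the gene and 5000 bp around it (right), after doxorubicin (red, upper bar) and vehicle (blue, lower bar). H3K27ac regions are more numerous after doxorubicin at 30 genes, and H3K9me3 regions cluster at Exo1, Xrcc4, Prkdc, Lig1, Parp1 and Xrcc5 in both treatments.

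p53 regions were found in or near 11 of the 42 genes, counting the gene and 5000 bp around it, against 20.6% of all protein-coding genes. These were the checkpoint gene Atr, Nbn and Trp53bp1 among the break sensors, Xrcc2 and Exo1 in homologous recombination, Xrcc4, Xrcc6 and Prkdc in end joining, Xrcc1 and Parp1 in single-strand break repair, and Top2b. They held 15 regions, 14 of them inside the gene, or 6.24 regions per Mb of window, against 5.13 for all genes. The median span of the 11 genes was 52.3 kb, against 26.9 kb for the other 31. None of the 42 genes had a p53 region within 1000 bp of an end, against 2.76% of all genes, and the nearest, at Xrcc1, had its summit 1669 bp from the annotated start. None of the 15 overlapped a region of the untagged ChIP or of the input, where 417 and 199 of all 11282 p53 regions did. The untagged ChIP had a region at 1 of the 42 genes, Brca1, against 4.62% of all genes, with a fold enrichment of 4.01 and a summit 561 bp from the annotated start.

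The p53 regions at repair genes were as strong as p53 regions at large, with a median fold enrichment of 7.50, against 7.52 for all. Their fold enrichments over input, the authors' values, ran from 3.14 at Exo1 to 14.6 at Top2b, and their ranks by that value from 2844 to 10654 of the 11282 p53 regions. The Top2b region, at chromosome 14 from 16369161 to 16369625, had its summit 4167 bp from the annotated start. In Prkdc, 2 regions had fold enrichments of 11.6 each, 48766 and 44742 bp from the nearer gene end. The Atr region had 9.33 and that of Nbn, which lay outside the gene, 8.35. The 3 regions of Trp53bp1 had 5.17, 8.08 and 7.50, and the 2 of Xrcc4 had 6.36 and 8.29. Xrcc2 had 7.16, Xrcc1 5.23, Parp1 4.26 and Xrcc6 3.95.

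H3K27ac overlapped 10 of these 15 p53 regions after doxorubicin, against 72.3% of all p53 regions, and 8 after vehicle, against 42.9%. It overlapped 3 after doxorubicin only, against 30% of all p53 regions: the second of Trp53bp1, with 0.939 FPM, that of Xrcc6 with 1.47 and that of Top2b with 0.646. The Atr region had it after vehicle only, at 0.533 FPM, from a pileup of 11 fragments. Those of Nbn and Xrcc4 and the third of Trp53bp1 had it in neither list.

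At the 7 p53 regions marked in both treatments, H3K27ac was higher after doxorubicin at each, against 91.7% of all p53 regions so marked, and past 1.5-fold at 6, against 74.5%. The median log2 ratio was 1.11, against 0.99 for all, so these regions were near the general pattern. The largest was in Prkdc, at chromosome 16 from 15685949 to 15686402, with 3.29 FPM after doxorubicin and 0.775 after vehicle, a ratio of 4.24 (2.40 to 7.92). The first region of Trp53bp1, at chromosome 2 from 121220774 to 121221131, had 3.46 FPM after doxorubicin and 1.11 after vehicle, a ratio of 3.11 (1.89 to 5.28), and that of Xrcc2 had 2.82 FPM after doxorubicin and 1.31 after vehicle, a ratio of 2.15 (1.32 to 3.59). Exo1 had 1.17 FPM after doxorubicin and 0.533 after vehicle, a log2 ratio of 1.14, and Parp1 had 1.53 FPM after doxorubicin and 0.726 after vehicle, a ratio of 2.10 (1.07 to 4.27). The Xrcc1 region is the one that also set the value at the gene end, and the second Prkdc region had 0.763 FPM after doxorubicin and 0.533 after vehicle, a ratio of 1.43 (0.592 to 3.53). Prkdc thus had less H3K27ac after doxorubicin at its end and more at a p53 region within the gene.

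**Figure D4:**
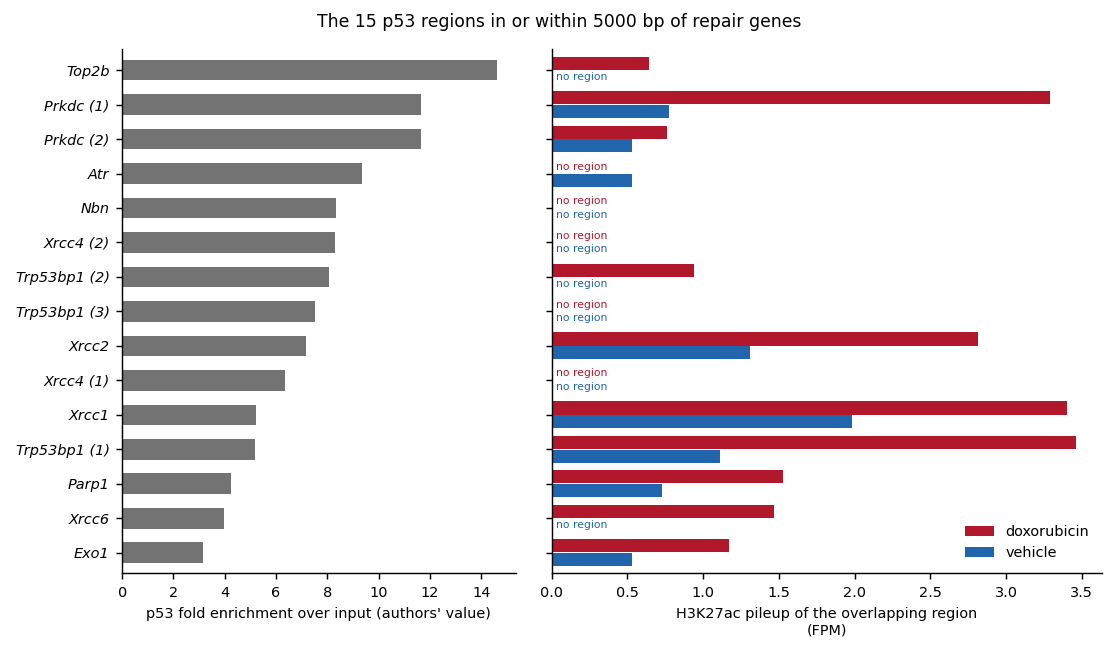
Left, fold enrichment of each p53 region over input, the authors' values, sorted, with regions of 1 gene numbered along the chromosome. Right, pileup of the overlapping H3K27ac region (FPM) after doxorubicin (red, upper bar) and vehicle (blue, lower bar). Where both bars are present the doxorubicin bar is the longer at each of 7 regions, and 3 regions have a doxorubicin bar alone.

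H3K9me3 was found at 16 of the 42 genes after doxorubicin, in the gene or 5000 bp around it, against 37.6% of all protein-coding genes, and at 16 after vehicle, against 32.6%. In both lists 15 genes had it. Xrcc6 had it after doxorubicin only, which 7.42% of all genes did, and Topbp1 after vehicle only, which 2.5% did. The regions numbered 71 after doxorubicin and 57 after vehicle, 1.25 times as many, and the ratio over all genes was also 1.25. They covered 3.58% of the windows after doxorubicin and 3.16% after vehicle, against 1.94% after doxorubicin and 1.67% after vehicle over all genes. Within 1000 bp of a gene end it was found at 5 genes after doxorubicin, against 7.48% of all genes, and at 4 after vehicle, against 5.87%.

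Most H3K9me3 regions lay in 6 genes, and end joining held 31 of the 71 after doxorubicin and 24 of the 57 after vehicle. Xrcc4, which spans 241 kb, had 14 after doxorubicin and 9 after vehicle, covering 9.52 kb after doxorubicin and 4.95 kb after vehicle. Prkdc, which spans 205 kb, had 11 regions after doxorubicin and 9 after vehicle, and Xrcc5 had 5 after doxorubicin, covering 6.07 kb, and 6 after vehicle, covering 5.88 kb. In the other pathways, Exo1 had 12 regions after doxorubicin and 10 after vehicle, and Parp1 had 7 after doxorubicin and 8 after vehicle. Lig1 had 8 that covered 22.3 kb after doxorubicin and 5 that covered 24.2 kb after vehicle. Pms2 had 3 after doxorubicin and 1 after vehicle, and Apex1 and Xrcc1 each had 2 after doxorubicin and 1 after vehicle. Rad50, Rnf168, Rad52, Xrcc2, Fancd2 and Fanci had 1 in each treatment. The p53 region of Parp1 overlapped an H3K9me3 region in both lists, and that of Xrcc2 in the vehicle list. These were 1 of 15 after doxorubicin and 2 of 15 after vehicle. Of all 11282 p53 regions, 2839 overlapped one after doxorubicin and 2257 after vehicle. The nucleotide excision repair and topoisomerase II genes had none in either list.

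A wider list of 89 other genes of the same pathways gave a like picture at gene ends as a whole, though not in each pathway. H3K27ac lay within 1000 bp of an end at 84 after doxorubicin and 82 after vehicle, and over the 80 genes with both the median log2 ratio was -0.09, with 8 genes higher and 9 lower past 1.5-fold, against the 19.1% and 12.3% of all genes given above. The highest was Ercc5, a nuclease of nucleotide excision repair, with pileups of 65 fragments after doxorubicin and 25 after vehicle, a ratio of 3.15 (1.96 to 5.22). Ercc6, of repair coupled to transcription, was at 0.95 on the log2 scale and the glycosylase gene Mpg at 0.88. The lowest were the glycosylase gene Neil1, with pileups of 17 fragments after doxorubicin and 42 after vehicle, a ratio of 0.491 (0.262 to 0.880), the Chek1 mediator gene Clspn at -0.86, and Hus1 of the checkpoint clamp and Brcc3, each at -0.72. Of 11 further checkpoint genes, 1 was higher and 4 were lower, against the same 19.1% and 12.3%. Of 12 in nucleotide excision repair, 3 were higher and 0 lower, with a median log2 ratio of 0.23. The 4 in end joining had 0 higher and 0 lower and a median of 0.33. That median was -0.57 over the 4 end-joining genes compared above. Each other pathway of the wider list had at most 2 higher and 2 lower.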

How the data were processed

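Per the submitters' processing notes, reads were aligned with Bowtie2 2.2.6 to mm10. Per the file headers, the authors called peaks with MACS2 2.2.5 on the 2 pooled libraries of each group, from read pairs, keeping 1 fragment at each position, with 0.05 as the q cutoff. No control entered the histone and input lists. The untagged and p53 lists both used the input as control, the first with a genome-wide and the second with a local background. The deposited signal is the fragment pileup at a summit, which MACS2 scaled down to the input's depth in the HA lists. The deposited fold enrichment is the ratio of pileup to background, q values were deposited as −log10, and lengths in bp.

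Summits of 1 interval were joined into a region with the values of its highest summit. Pileups were expressed per 1000000 fragments kept (FPM), and overlap needed 1 bp. Genes, from the RefSeq table of GRCm38.p6, had a region at an end within 1000 bp. Ratio intervals are exact (Clopper-Pearson, 95%). PCR copies are not independent molecules, so intervals cover counting error only. Overlap and intervals were checked on simulated data. No sequence of p53 regions was used here. Some values of the wider list are not reported here.

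The 42 genes, the pathways and the wider list were chosen with earlier results of these data known. All 42 could be named, with values in full for those with p53 or H3K9me3 regions, those without H3K27ac, the 5 highest and 5 lowest pileup and width ratios, the 3 highest and 3 lowest pileups, and Atm, Atr, Chek1, Chek2, Top2a and Top2b. Windows at annotated starts and the limit to summits within 500 bp of each other were added after the data were seen. Other alternatives covered the windows, a −log10 q of at least 5, summits inside the window, centring, fold enrichment, summed summits and a 2-fold rule. Scripts ran in Python 3.11.15 with pandas 2.3.3, scipy 1.17.1, numpy 2.4.6 and matplotlib 3.10.9.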

Additional observations from a re-analysis of the deposited data

How the results depend on the processing

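Of 56 recomputed summary values, 49 stayed near the reported ones. The 7 that moved were as follows. With fold enrichment in place of pileup the median log2 ratio was -0.36, and the median of all genes moved too. A 2-fold rule left 2 genes higher and 1 lower, against 6.86% and 3.01% of all genes, as a stricter rule must give fewer. Where the summits of the 2 lists lay within 500 bp of each other, 3 genes were lower, against 11.2% of all such genes, since Prkdc and Apex1 dropped out. Within 1000 bp of a gene end, 0 genes had a p53 region, while H3K9me3 was at 5 genes after doxorubicin (7.48% of all genes) and 4 after vehicle (5.87%), the window being smaller. Of 329 recomputed values for single genes, 322 were labelled as near the reported ones, 6 as moved and 1 as reversed. The reversed one was Xrcc1 at -0.069 with summed summits. These labels do not mean that each gene kept its sign or its call. Trp53bp1 changed sign with summed summits and Ercc1 with summits inside the window, and several genes crossed the 1.5-fold rule, as given above. The causes were not tested.

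No paired analysis was possible because the 2 libraries of a group share a peak list. For the same reason leaving out a library was not possible. A gene without a region was below the calling threshold, about 8 fragments at a summit after doxorubicin and 9 after vehicle for H3K27ac, so its level was not detectable at this depth.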

Other observations

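Among the 89 genes of the wider list, 21 had a p53 region in the gene or 5000 bp around it, where 20.6% of all genes had one, and there were 26 regions in all. H3K27ac overlapped 25 of the 26 after doxorubicin, against 72.3% of all p53 regions, and 18 after vehicle, against 42.9%, and it overlapped 7 after doxorubicin only, against 30%. At each of the 18 marked in both lists the pileup in FPM was higher after doxorubicin, as at 91.7% of all p53 regions so marked, with a median log2 ratio of 1.13, against 0.99. Of the 2 p53 regions of Nhej1, an end-joining factor gene, the stronger had a fold enrichment of 40.7, and the strongest of Babam2, a subunit gene of the BRCA1-A complex, had 31.4. Babam2 had 3 regions, 2 of them with H3K27ac ratios of 4.19 (2.10 to 9.08) and 4.04 (2.08 to 8.46). The p53 region of Ercc5 lay 1011 bp from the annotated start within the stretch of H3K27ac that gave the highest ratio of the list. In Top1, the gene of topoisomerase I, the H3K27ac ratio at the p53 region was 3.33 (1.84 to 6.33).

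For scale, the p53 target gene Cdkn1a had an H3K27ac pileup of 115 fragments after doxorubicin and 125 after vehicle, a log2 ratio of 0.16, and Mdm2 had 175 after doxorubicin and 140 after vehicle, a log2 ratio of 0.60.

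In the untagged HA ChIP, 4 genes of the wider list had a region in the gene or 5000 bp around it, against 4.62% of all genes. These were Ercc5, Neil2, Aptx and Top3b, and that of Top3b overlapped its p53 region.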
